A study of Mus musculus with 4 samples.

Results

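Rn45s is the gene symbol under which the 45S precursor of ribosomal RNA is annotated, and it is 1 of the 23235 rows of the expression table. It was chosen by its symbol, after symbols and values had been paired anew as described below. RNA polymerase I copies the ribosomal DNA repeats in the nucleolus into a single long precursor. Cleavage and trimming then remove its spacers and release 18S rRNA for the small ribosomal subunit and 5.8S and 28S rRNA for the large one. A growing oocyte makes and stores ribosomes in large numbers, and this synthesis stops near full growth, when chromatin condenses around the nucleolus. Dcaf13 encodes a nucleolar protein. Its yeast counterpart, Sof1, belongs to the small subunit processome, the particle that prepares 18S rRNA.

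RNA of mouse oocytes was measured in 4 groups with 1 library of 10 oocytes each. Fully grown deletion and growing deletion oocytes came from Dcaf13fl/fl;Gdf9-Cre females, whose transgene makes Cre recombinase under the Gdf9 promoter, active in oocytes once follicles begin to grow. Fully grown control and growing control oocytes came from Dcaf13fl/fl females without the transgene, and all mice had a C57B6 background. Mice were about 14 days old for growing oocytes. For fully grown oocytes they were about 23 days old and had received 5 IU of PMSG 48 h earlier, a gonadotropin that stimulates follicle growth, so stage, age and hormone cannot be told apart. Whether the oocytes of a library came from 1 mouse or several is not stated. The libraries were primed with oligo-dT, which pairs with stretches of A, and how much of the cell's ribosomal RNA such a library captures is not known from these values.

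The row lies at chr17:39979942-39985774 of mm9, on the plus strand, and spans 5833 bases. No other gene of the table overlaps it. The next genes listed on the chromosome are Gm9041, whose end lies 197329 bases before it, and Esp38, whose start lies 107523 bases after its start. Gm9041 and Esp38 were listed at 0 FPKM in all 4 libraries. The interval is too short to hold the whole precursor. The gene model behind the deposited value is not given in the sources used here, nor is the handling of reads that match several ribosomal DNA copies.

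The GENCODE M21 annotation of GRCm38, a later build, shows what lies at the matching place, since there the start of the transcript Gm26917 lies 107507 bases before that of Esp38. The plus strand holds Gm26917 (chr17:39843013-39846341, 3329 bases), which carries leading spacer sequence. A gap of 11 bases separates it from the 18S sequence, which is annotated as an rRNA transcript of the minus strand, CT010467.1, over chr17:39846353-39848201 (1849 bases). The plus strand transcript Gm42418 (chr17:39846958-39848788) runs over the end of 18S and 587 bases into the following internal spacer. None of these 3 transcripts reaches beyond that spacer, and all 3 names refer to the same ribosomal unit. The following stretches of the plus strand, read from the GENCODE transcripts, show the parts of the precursor that processing has to separate. They are given 5′ to 3′, with 18S sequence in capitals and spacer sequence in lower case.
Spacer before 18S, chr17:39843013-39843132: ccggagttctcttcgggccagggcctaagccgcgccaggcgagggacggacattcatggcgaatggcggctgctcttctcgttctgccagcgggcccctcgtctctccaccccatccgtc
Start of 18S, chr17:39846353-39846412: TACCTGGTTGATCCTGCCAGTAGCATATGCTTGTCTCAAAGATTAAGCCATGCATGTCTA
End of 18S and start of the internal spacer, chr17:39848142-39848261: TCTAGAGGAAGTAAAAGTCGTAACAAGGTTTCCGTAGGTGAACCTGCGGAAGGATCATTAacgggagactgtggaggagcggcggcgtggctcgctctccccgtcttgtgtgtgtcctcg

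Both flanking spacers are rich in G and C, and the 18S part less so. The GC content was 69.1% in Gm26917 and 55.4% in the 18S transcript. Joined, the spacer, 18S and spacer pieces had 64.9%, and 0.837% of 55341 GENCODE genes, each by its longest transcript, had as much or more. The longest run of A is shown as well, because an oligo-dT primer pairs with A. It had 6 bases and began at base 815 of the 18S sequence, as counted from its annotated start. Of the GENCODE genes, 42.9% had a run of 6 or more in their longest transcript, and the median longest run was 5. Whether priming took place there was not tested. In the stretch around it, the run stands in capitals.
Longest run of A in 18S, chr17:39847142-39847197: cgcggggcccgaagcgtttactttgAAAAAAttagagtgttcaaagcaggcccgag

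The level of Rn45s rests on how symbols and values are paired. The symbols of the deposited table stand in an order that ignores case, while the values run in byte order of the symbols, which sorts all capitals ahead of lower case. Rn45s is row 17907 in byte order and row 17909 in the deposited order. As deposited, the row of Rn45s held 0.0649 FPKM in fully grown deletion, 0.298 in fully grown control, 1.11 in growing deletion and 0.964 in growing control oocytes, and the highest value of each library stood in the row of Rmst. After re-pairing that highest value belonged to Rn45s. A shift of 1 row would give it to Rn4.5s, a small RNA gene, or to the ribonuclease gene Rnase1, so the pairing was looked at locally. The 86 rows of ribosomal protein genes follow nearby in byte order, a median of 194.5 rows away, and are abundant in any growing cell. Their median was 599 FPKM as re-paired, against 569 and 541 FPKM at a further shift of 1 row in either direction and 441 FPKM with the deposited pairing. Many of these symbols sort next to each other, so a small shift often swaps in another ribosomal protein gene. The nearest lies 150 rows from Rn45s, so an offset at Rn45s alone would not show here. Over the 1001 rows around Rn45s, the smallest value above 0 of low genes fell with transcript length, as it must when it is about the worth of 1 read. Spearman's rho across 208 genes, which are not independent replicates, was -0.25 as re-paired. It was -0.23 at a shift of 1 row back, -0.096 at a shift of 1 row forward and -0.083 with the deposited pairing. It was -0.19 at 2 rows back and -0.23 at 3 rows back. The length check thus separated the re-paired order poorly from shifts of 1 to 3 rows back, and the pairing was not checked with the submitters.

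**Figure D1:**
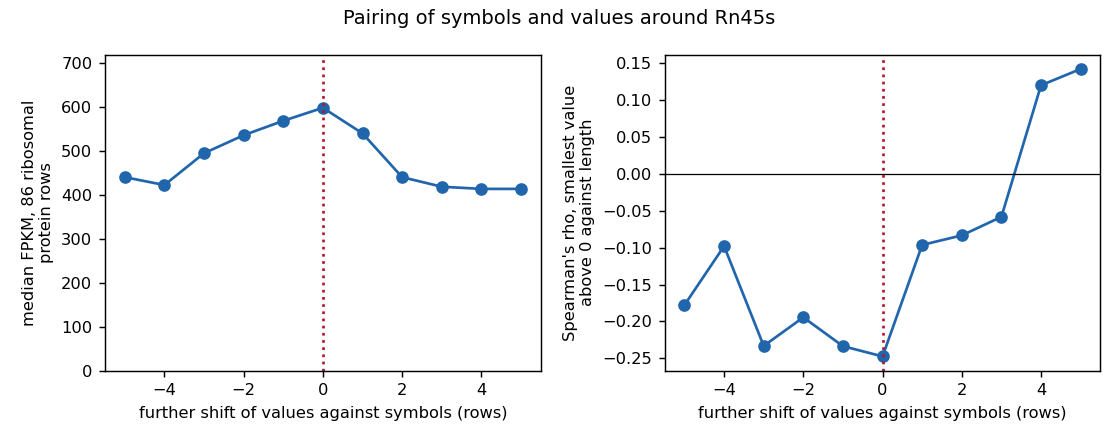
Pairing of symbols and values near Rn45s. The x axis gives a further shift of the values against the symbols in rows, with 0 the byte-order pairing (dotted line). Left, the median FPKM of 86 ribosomal protein rows, highest at 0 (599 FPKM). Right, Spearman's rho between the smallest value above 0 and transcript length over the 1001 rows around Rn45s, lowest at 0 (-0.25), with -0.23 at both -1 and -3.

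Rn45s was the most abundant row of the table in every library. It stood at 13104.9 FPKM in fully grown deletion, 11441.8 in fully grown control, 9913.9 in growing deletion and 10409 FPKM in growing control oocytes. Both fully grown libraries lay above both growing libraries, and the 2 deletion libraries were the highest and the lowest of the 4. From low to high the order was growing deletion, growing control, fully grown control and fully grown deletion. With 1 library per group there is no spread, so whether any of these libraries differ beyond error cannot be told. The whole range was 1.32-fold. Among the 100 rows with the highest mean, 54 had a wider range over the 4 libraries than Rn45s, and the median range was 1.34-fold.

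Rn45s made up 1.93% of the summed FPKM in fully grown deletion, 1.71% in fully grown control, 1.49% in growing deletion and 1.60% in growing control oocytes. Summed FPKM per library lay between 649397 and 678437. The share kept the order of the levels. FPKM is scaled to length, so the share of sequenced fragments is larger for a long transcript. If the model used spans the whole interval of 5833 bases, Rn45s took 7.64% of the mapped fragments in fully grown deletion, 6.67% in fully grown control, 5.78% in growing deletion and 6.07% in growing control oocytes. These percentages are rough, because the same sum over all rows with the longest GENCODE transcript as length came to between 144.9% and 146.0% of the mapped fragments. Read counts are not part of the deposited values, so none of these shares has an interval.

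**Figure D2:**
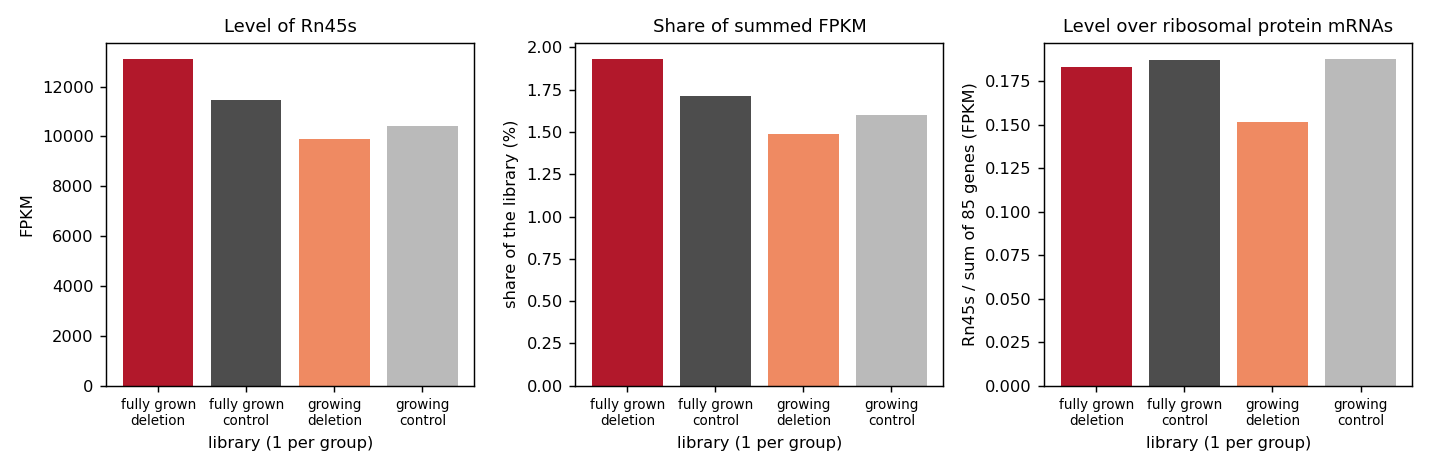
Rn45s in each library, 1 bar per library, with deletion left of its control. The panels give FPKM (9913.9 to 13104.9), the share of summed FPKM in percent (1.49 to 1.93) and the ratio of Rn45s to the summed FPKM of 85 ribosomal protein genes (0.151 to 0.188). There are no replicates and no error bars.

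The rows next in mean level were well below it. Gm15698, a predicted gene, stood at 6079.7 FPKM in fully grown deletion, 6314 in fully grown control, 6278 in growing deletion and 7781 in growing control oocytes. Ldhb, which encodes the B subunit of lactate dehydrogenase, ranged from 4797 FPKM in fully grown control to 6741 FPKM in growing deletion oocytes. H1foo, the linker histone of oocytes, ranged from 4236 FPKM in growing deletion to 5555 FPKM in growing control oocytes. Rn45s exceeded the second row of its library by 2.16-fold in fully grown deletion, 1.81-fold in fully grown control, 1.47-fold in growing deletion and 1.34-fold in growing control oocytes. The margin was wider in both fully grown libraries than in both growing libraries.

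**Figure D3:**
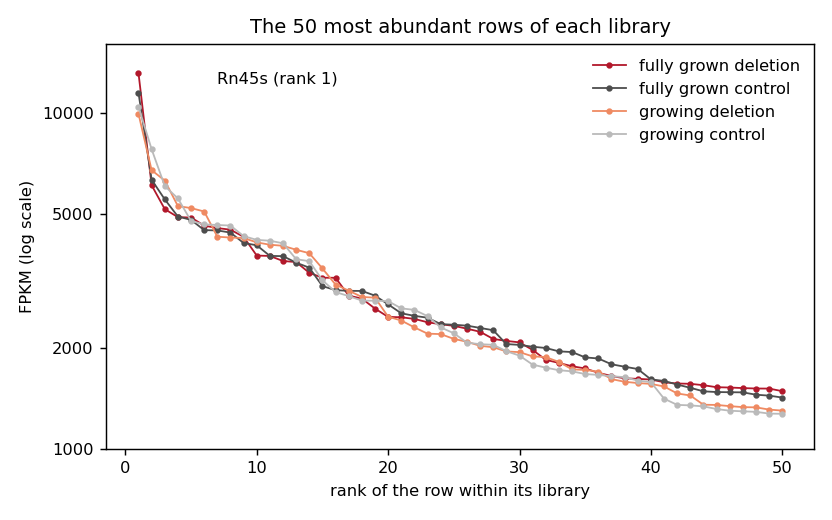
FPKM (log axis) of the 50 most abundant rows of each library against their rank, 1 line per library. Rank 1 is Rn45s in all 4 libraries, at 9913.9 to 13104.9 FPKM, and the second row lies between 6079.7 and 7781 FPKM.

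The comparisons of deletion with control ask whether loss of Dcaf13, a gene of 18S processing, goes with another level of Rn45s. The matching place of the later build holds 18S as well as spacer sequence. A single value for the row does not separate mature 18S rRNA from its precursor. The targeted gene was lower at both stages. Dcaf13 stood at 64.0 FPKM in fully grown deletion against 160.2 in fully grown control oocytes, and at 38.9 FPKM in growing deletion against 96.1 in growing control oocytes. Which exons the remaining signal came from is not known from a single value per gene.

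In fully grown oocytes Rn45s was at 13104.9 FPKM in deletion against 11441.8 in control, which is 1.15-fold and a change of 0.20 in log2(FPKM + 1). The size rule asks for a change of at least 1 in either direction, for genes with 5 FPKM in either library or both. It was met by 2.17% of the 7413 genes at that minimum and not by Rn45s. Of those genes, 55.2% had a larger change than Rn45s in either direction, and the median change was 0.037. Among the other 99 most abundant rows, 40 had a larger change. Genes of like GC content and length were the 500 nearest to the GC content of the joined ribosomal pieces and the 5833 bases of the interval. They had a median change of 0.39, so Rn45s lay 0.20 below them. Their GC content ran from 54.6% to 67.3%, against 64.9% in the joined pieces, so the match is loose. The joined pieces stand in here for the unknown gene model.

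In growing oocytes Rn45s was at 9913.9 FPKM in deletion against 10409 in control, which is 0.952-fold and a change of -0.070. The size rule was met by 5.13% of 8010 genes and not by Rn45s, and 85.2% of the genes had a larger change. The median change over all genes was 0.080, and 79 of the other 99 most abundant rows had a larger change. The 500 genes nearest in GC content and length had a median change of 0.34, and Rn45s lay 0.41 below it. The summed level of 14 markers of granulosa cells, which surround the oocyte and contain ribosomal RNA too, was also lowest in the growing deletion library. The sum was 32.0 FPKM in fully grown deletion, 29.3 in fully grown control, 18.6 in growing deletion and 36.9 in growing control oocytes. Their median was lowest in another library, at 0.725 FPKM in fully grown deletion, 0.305 in fully grown control, 0.376 in growing deletion and 0.568 in growing control oocytes. In bulk RNA, fewer granulosa cells and less RNA per granulosa cell cannot be told apart. Of the 14, 7 reached 1 FPKM anywhere, and the sum was carried by Cyp19a1, the aromatase gene, at 7.75 FPKM in growing deletion against 17.7 in growing control oocytes. Amh was listed at 0 in both fully grown libraries and stood at 0.10 FPKM in growing deletion and 0.21 in growing control oocytes. The part of other cells in the level of Rn45s was not tested. Markers of theca and stroma reached 1 FPKM in none of 10 genes. Of 11 blood and immune genes 2 did, Pecam1, an adhesion molecule of endothelial cells, and Cd68, a macrophage gene, while 5 were at 0 in all libraries. The lowest value of any of the 18 oocyte markers in any library was 65.6 FPKM, for Kit, the receptor of the granulosa cell factor KITL.

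The deletion change thus lay above 0 in fully grown and below 0 in growing oocytes, and the difference between the changes was 0.27. Relative to the genes of like GC content and length it lay below 0 at both stages, at -0.20 in fully grown and -0.41 in growing oocytes. Of 8235 genes at 5 FPKM or more in any library, 46.6% had a larger difference between stages. The difference has no test.

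**Figure D4:**
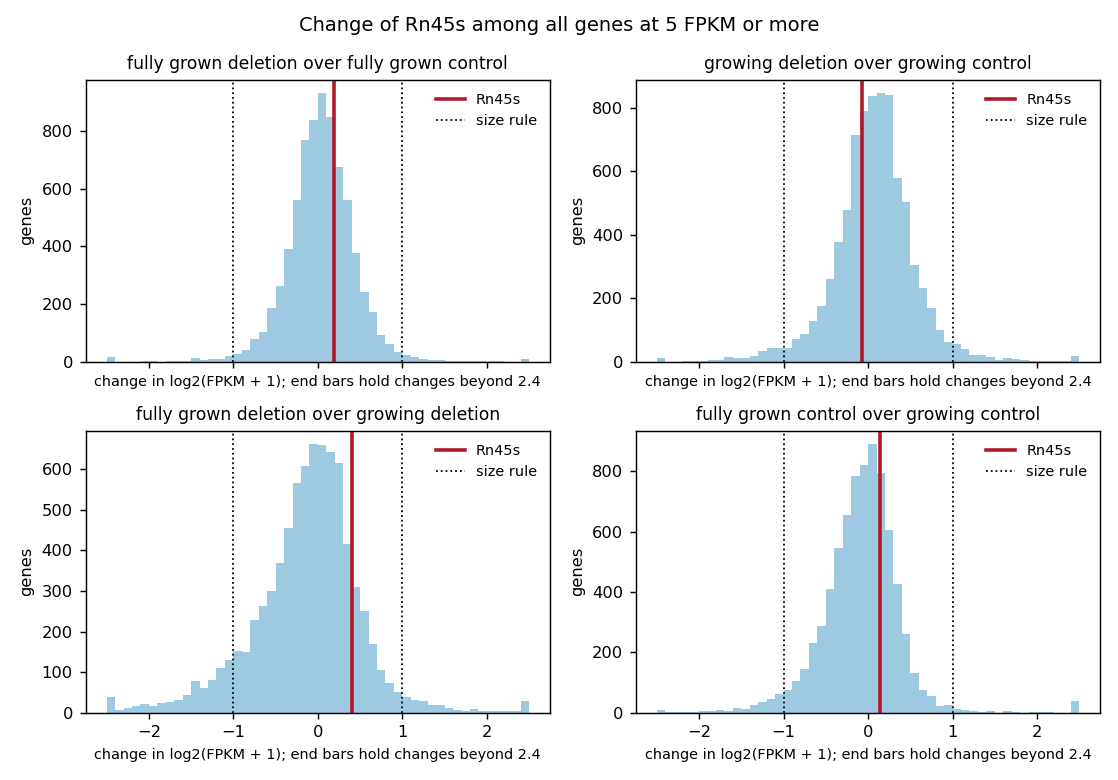
Changes in log2(FPKM + 1) of all genes with 5 FPKM in either library or both, as counts of genes per bin of 0.1, for the 4 comparisons. The red line is Rn45s (0.20, -0.070, 0.40 and 0.14) and the dotted lines mark the size rule at a change of 1. Changes beyond the axis are counted in the end bars, and Rn45s lies inside the dotted lines in all 4 panels.

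The comparisons of fully grown with growing oocytes describe the locus over growth. In the deletion Rn45s was at 13104.9 FPKM in fully grown against 9913.9 in growing oocytes, which is 1.32-fold and a change of 0.40. The size rule was met by 11.4% of 7957 genes and not by Rn45s. Its change was above that of most genes, with 14.7% of genes higher, and the median change was -0.071. In controls it was at 11441.8 FPKM in fully grown against 10409 in growing oocytes, 1.10-fold and a change of 0.14. There the rule was met by 4.18% of 7661 genes, 28.4% of genes lay above Rn45s, and the median change was -0.058. Genes of like GC content and length lay lower in fully grown oocytes, by a median change of -0.26 in the deletion and -0.33 in controls, so Rn45s stood 0.66 and 0.46 above them. FPKM is relative to the library, and amounts of precursor in an oocyte were not measured.

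Ribosomal protein mRNAs encode the protein part of the ribosome, and their sum is a yardstick within each library. The 85 measured genes summed to 71472 FPKM in fully grown deletion, 61018 in fully grown control, 65473 in growing deletion and 55410 FPKM in growing control oocytes. Rn45s stood at 0.183 of that sum in fully grown deletion, 0.188 in fully grown control, 0.151 in growing deletion and 0.188 in growing control oocytes. The growing deletion library had the lowest ratio, at 0.806 of its control, while the fully grown deletion library was at 0.978 of its control. In growing oocytes 81 of the 85 genes lay above 0 in the deletion comparison with a median change of 0.28, beside 57.1% of all measured genes above 0 and a median of 0.071. In fully grown oocytes 74 lay above 0 with a median of 0.24, beside 53.3% and a median of 0.026. The most abundant were Rpl41 and Rpl35 of the large and Rps29 of the small subunit. Rpl41 stood at 4611 FPKM in fully grown deletion, 4031 in fully grown control, 4111 in growing deletion and 3664 FPKM in growing control oocytes. Only Rpl34 met the size rule between deletion and control, at 202.1 against 87.8 FPKM in fully grown and 195.6 against 88.0 FPKM in growing oocytes. That is 1 of the 84 members at 5 FPKM in fully grown and 1 of 85 in growing oocytes. The share of all genes called higher was near it, at 1.08% in fully grown and 2.62% in growing oocytes.

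RNA polymerase I and its factors transcribe the locus, and 21 of the 22 listed genes were measured, meaning that some library held 1 FPKM or more. Between fully grown deletion and fully grown control oocytes 10 lay above 0 with a median change of -0.019, and none met the size rule. Between growing deletion and growing control oocytes 14 lay above 0 with a median of 0.12. By the rule 2 of the 19 members at 5 FPKM were higher, beside 2.62% of all genes. Ubtf, the upstream binding factor that opens ribosomal genes for transcription, stood at 13.9 FPKM in growing deletion against 5.48 in growing control oocytes. Taf1c, a subunit of the promoter factor SL1, stood at 5.11 against 1.54 FPKM. It thus passed the minimum of 5 FPKM narrowly, and only through the growing deletion library. Both were low in fully grown oocytes, with Ubtf at 1.67 FPKM in deletion and 1.37 in control and Taf1c at 1.30 and 0.46 FPKM. Ubtf was thus 1 of 4 members lower over growth in the deletion (change -2.48) and 1 of 2 in controls (-1.45). These were among 19 and 18 members at 5 FPKM, beside 8.75% and 3.07% of all genes, whereas Rn45s lay above 0 in both. Polr1c, a subunit shared with RNA polymerase III, was also lower in controls, at 8.16 FPKM in fully grown against 17.6 in growing oocytes. Abundant members were subunits shared with other polymerases. Polr1d ranged from 571 FPKM in growing control to 653 FPKM in fully grown deletion oocytes, Polr2k from 388 to 593 FPKM in the same libraries, and Polr2f from 404 to 518 FPKM.

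Genes of 18S processing and the small subunit processome numbered 58 measured of 60 listed, Dcaf13 among them. In the deletion comparisons 40 lay above 0 in fully grown (median change 0.14) and 44 in growing oocytes (median 0.19). Dcaf13 itself was the single member past the rule, lower at both stages, of 51 members at 5 FPKM in fully grown and 52 in growing oocytes. Of all genes 1.09% were lower in fully grown and 2.51% in growing oocytes. Over growth in the deletion only Nob1 was lower by the rule, the endonuclease that makes the last cut at the 18S end shown above. It was at 6.24 FPKM in fully grown against 21.2 in growing oocytes. That is 1 of 52 members at 5 FPKM, beside 8.75% of all genes lower. No member met the rule over growth in controls, where 4.18% of genes did. Emg1, a methyltransferase acting on 18S, was the most abundant member and ranged from 385 FPKM in growing deletion to 534 FPKM in fully grown control oocytes. Nhp2l1, a protein of the U3 particle, ranged from 218 FPKM in growing control to 284 FPKM in growing deletion oocytes. Imp3, another U3 protein, ranged from 193 FPKM in fully grown control to 278 FPKM in growing deletion oocytes.

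Genes that mature 5.8S and 28S and assemble the large subunit numbered 60 measured of 61 listed. In the deletion comparisons 38 lay above 0 in fully grown (median change 0.12) and 48 in growing oocytes (median 0.25). Only Mybbp1a, a nucleolar protein, was past the rule, at 14.1 FPKM in growing deletion against 5.84 in growing control oocytes. That is 1 of 50 members at 5 FPKM there, where 2.62% of all genes were higher. Over growth 4 of 50 members at 5 FPKM were lower by the rule in the deletion, where 8.75% of all genes were. In controls 1 of 47 was lower, where 3.07% of all genes were. They included Gltscr2, at 9.95 FPKM in fully grown against 41.3 in growing oocytes, and the rRNA methyltransferase gene Nop2, at 1.83 against 8.62 FPKM. The one in controls was Bop1, of the complex that removes the internal spacers, at 5.75 FPKM in fully grown against 16.4 in growing oocytes. Bop1 was lower by the rule in the deletion too, at 10.4 against 32.1 FPKM. Nop2 also fell in controls, by a change of -1.15, but lay below 5 FPKM in both control libraries. Npm1, the abundant nucleolar protein nucleophosmin, ranged from 748 FPKM in growing control to 1065 FPKM in fully grown deletion oocytes. Neither Rsl1d1 (450 to 554 FPKM) nor the anti-association factor gene Eif6 (268 to 312 FPKM) was past the rule.

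The nuclear exosome trims precursor ends and destroys excised spacers, and the TRAMP complex adds short A tails to its substrates. The list is of interest because an oligo-dT primer needs a stretch of A. All 17 listed genes were measured, and none met the rule between deletion and control, with median changes of -0.023 in fully grown and 0.11 in growing oocytes. Papd5, a TRAMP poly(A) polymerase, was named after its values were seen. It stood at 11.4 FPKM in fully grown deletion, 11.6 in fully grown control, 11.1 in growing deletion and 12.0 in growing control oocytes. Skiv2l2 of the list also varied little, from 21.3 to 23.3 FPKM. Papd7 of the list varied more, at 92.7, 73.9, 54.4 and 63.1 FPKM in the same order of libraries. So did Zcchc7, at 33.2, 28.3, 16.6 and 22.4 FPKM. Skiv2l2, Papd7 and Zcchc7 were likewise named after their values were seen. C1d and Exosc6, both exosome proteins, were the 2 members lower over growth in each genotype, of 16 at 5 FPKM. Of all genes 8.75% were lower in the deletion and 3.07% in controls. C1d was at 1.89 FPKM in fully grown against 7.52 in growing deletion oocytes, and at 2.05 against 6.26 FPKM in controls. Exosc6 was at 8.06 against 24.2 FPKM in the deletion and at 9.20 against 20.3 FPKM in controls. Mphosph6, an exosome cofactor in 5.8S maturation, was the most abundant, from 1124 FPKM in growing deletion to 1856 FPKM in fully grown control oocytes. Exosc8 (139 to 175 FPKM) and Exosc7 (128 to 150 FPKM) varied less.

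**Figure D5:**
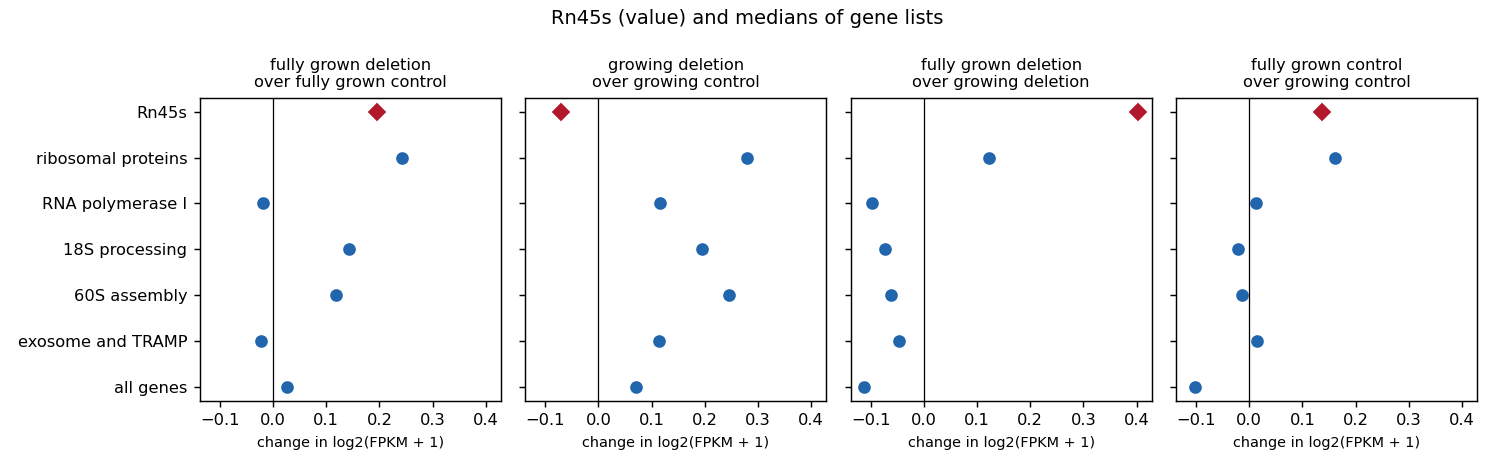
Change of Rn45s (diamond) and median changes of 5 gene lists and of all genes at 1 FPKM or more in any library (points), in log2(FPKM + 1), for the 4 comparisons. Rn45s is at -0.070 and the ribosomal protein median at 0.28 between growing deletion and growing control oocytes. Over growth in the deletion Rn45s is at 0.40, and the medians of the lists lie between -0.10 and 0.12.

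High FPKM was not shared by other structural RNAs of the table. Of the 22 listed, 8 were in the table and 4 reached 1 FPKM in any library. Rpph1, the RNA of ribonuclease P, stood at 4.47 FPKM in fully grown deletion, 0.75 in fully grown control, 4.56 in growing deletion and 3.16 in growing control oocytes. Rnu12, a spliceosomal RNA, was at 3.11 FPKM in fully grown deletion against 9.90 in fully grown control oocytes and listed at 0 in the growing libraries. Vaultrc5, a vault RNA, was at 1.94 FPKM in fully grown deletion, 2.12 in fully grown control and 0.43 in growing control oocytes and listed at 0 in growing deletion oocytes. Terc, the telomerase RNA, was at 2.23 FPKM in fully grown deletion and 1.4996 in growing deletion oocytes and listed at 0 in both control libraries. Rmrp, the RNA of the nuclease that cuts the spacer after 18S, was listed at 0 in both deletion libraries and stood at 0.898 FPKM in fully grown control and 0.933 in growing control oocytes. Rmrp did not reach 1 FPKM in any library and was named after its values were seen. Terc, too, was picked outside the rule by which genes were named. The fragment counts behind such low values are not known, so no gain or loss with the deletion can be read from them. Among 7 nuclear long noncoding RNAs, Tug1 was highest at 8.21 FPKM in fully grown deletion, 14.8 in fully grown control, 13.1 in growing deletion and 16.6 in growing control oocytes. Malat1 was at 2.23 FPKM in fully grown against 5.798 in growing deletion oocytes and at 2.44 against 7.12 FPKM in controls. Meg3 stayed between 4.39 and 5.33 FPKM.

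Small nucleolar RNAs guide the modification and cleavage of the precursor. Of the 16 listed that act in cleavage, only Snord22 was in the table, listed at 0 in all libraries. Of all 114 genes of the class, 30 were measured. The 114 summed to 1826 FPKM in fully grown deletion, 2210 in fully grown control, 73.5 in growing deletion and 7.35 in growing control oocytes. The stages did not overlap, and most of the fully grown sum was Snord37, which guides methylation of 28S, at 1380 FPKM in fully grown deletion and 1414 in fully grown control oocytes and listed at 0 in both growing libraries. In growing control oocytes only Snora47, at 6.42 FPKM, lay above 0 among the measured members, so no other could be lower over growth in controls. There 21 members reached 5 FPKM, nearly all through the fully grown library, and all 21 were higher. In the deletion 12 of 15 were higher and 1 lower. Most of the 12 were listed at 0 in growing deletion oocytes and reached 5 FPKM only through the fully grown library. Of all genes 1.11% in controls and 2.70% in the deletion were higher. Between fully grown deletion and control 4 were higher and 11 lower, of 24 at 5 FPKM, beside 1.08% and 1.09% of all genes. Nearly all of the 11 were listed at 0 in fully grown deletion oocytes, and most of the 4 at 0 in fully grown control oocytes. They reached 5 FPKM only through the library where they were high, so these counts cannot be read as an effect of the deletion. Between growing deletion and control 5 of the 6 members at 5 FPKM were higher and 0 lower, beside 2.62% and 2.51% of all genes. With the other measured members at 0 in growing control oocytes, only Snora47 could have been lower. Snord83b at 110.6 and Snord100 at 105.1 FPKM in fully grown control oocytes were listed at 0 in fully grown deletion oocytes. The other way round, Snord95 at 82.6 and Snora44 at 5.95 FPKM in fully grown deletion oocytes were listed at 0 in fully grown control oocytes. Snora47 was at 124.0 FPKM in fully grown deletion against 233 in fully grown control oocytes. The fragment counts behind these values are not known.

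Genes with the pattern of Rn45s over the 4 libraries were sought among 3360 genes at 20 FPKM or more in all of them. Likeness was the Euclidean distance between profiles of log2(FPKM + 1) centred on their mean. The median distance was 0.412, and 53 genes lay within 0.1. Nearest was Mknk1, which encodes a kinase of the cap-binding factor eIF4E, at a distance of 0.0241, with 65.9 FPKM in fully grown deletion, 58.0 in fully grown control, 50.8 in growing deletion and 53.1 FPKM in growing control oocytes. Next came Fam160a1 (0.0385), the zinc finger gene Zmat5 (0.0421), Atp5k (0.0437), a subunit of ATP synthase, and Prpsap2 (0.0459), which encodes a protein associated with phosphoribosyl pyrophosphate synthetase. The same order of the 4 libraries as in Rn45s was found in 260 of the 3360 genes, or 7.74%. A likeness over 4 libraries is a description of these libraries.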

How the data were processed

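The study made Smart-seq2 libraries of polyadenylated RNA, started from an oligo-dT primer and cut with Tn5 transposase, per the labels' protocols. The authors deposited FPKM, fragment counts scaled to transcript length and to the mapped fragments of the library, for 23235 gene symbols. Cufflinks 2.2.1, Bowtie2 2.1.0, TopHat2 2.0.11, CASAVA 1.8 and the build mm9 appear, without roles or settings, in the submitters' processing notes. The gene models, strand handling and treatment of reads with several matches are not known here, which bears directly on ribosomal DNA, which is repeated in the genome. The 4 per-sample tables held the same values as the whole-series table.

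Symbols sorted in byte order were paired with the value rows in file order. This pairing was inferred from the values, and 19122 rows take another symbol by it. Changes were taken on the scale log2(FPKM + 1). The size rule asked for a change of 1 or more, among genes reaching 5 FPKM in either library. No test was run, since each group holds 1 library and an additive fit of genotype and stage would take the difference between stages as error. The sequencing depth is unknown. Rn45s, the gene lists and the size rule were chosen with earlier results of these data known. Named genes were Rn45s, Dcaf13, the nearest genes on the chromosome, the 3 most abundant members of each list, up to 2 members per direction past the size rule, the 3 rows next in level and the 5 nearest in pattern. Others, among them Papd5, Papd7, Zcchc7, Skiv2l2, Rmrp, Terc, Amh, Kit and Snord22, were named outside this rule. For the pattern, genes needed 20 FPKM or more in all 4 libraries. The calculations were checked on a simulated table with known pairing and known changes between growing libraries. That table was built in the byte-order pairing, so the check does not tell whether this pairing is right. The calculations ran in Python 3.11.15 with pandas 2.3.3, numpy 2.4.6 and scipy 1.17.1. Alternatives were the deposited pairing, other pseudocounts, 3 rescalings, other minimum levels, length-weighted shares and a local GC and length trend.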

Additional observations from a re-analysis of the deposited data

Results flagged for a closer look

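Rn45s lay in opposite directions in the deletion comparisons of the 2 stages. Its change in log2(FPKM + 1) was 0.20 between fully grown deletion and fully grown control oocytes and -0.070 between growing deletion and growing control oocytes. Relative to genes of like GC content and length, loosely matched to a stand-in sequence, it was below 0 at both stages. The values were -0.20 in fully grown and -0.41 in growing oocytes. The ratio of Rn45s to the summed ribosomal protein genes was below control at both stages, at 0.978 of it in fully grown and 0.806 in growing oocytes. That sum was itself higher in the deletion at both stages. It was 71472 against 61018 FPKM in fully grown and 65473 against 55410 FPKM in growing oocytes. Each direction rests on 1 library against 1 library, and the difference was not tested.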

How the results depend on the processing

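With 1 library per group there is no spread within a group, leaving out a library removes its whole group, and the depth behind the values is unknown. No paired analysis was possible because the groups share a single replicate number. An additive fit of genotype and stage over the 4 libraries would leave 1 residual degree of freedom and was not run. Pseudocounts of 0.1 and 5, rescaling by the median ratio, and scaling to the column sum with or without Rn45s kept the direction of all 4 changes of Rn45s and of the difference between stages, none of which was past the size rule. With the deposited pairing the changes were -0.29 (fully grown deletion over control), 0.11 (growing deletion over control), -0.99 (growth in the deletion), -0.60 (growth in controls) and -0.39 (difference between stages), for values of 0.0649 to 1.11 FPKM, and the shares were 9.57e-06%, 4.46e-05%, 0.000167% and 0.000149% in fully grown deletion, fully grown control, growing deletion and growing control oocytes. Relative to genes of like GC content and length, an alternative added after the data were seen, the fully grown deletion change was -0.20, reversed from 0.20. A trend on the GC content of Rn45s itself was not run, since the reference has no entry under that symbol. As a share of fragments the 4 libraries, in the same order, had 7.64%, 6.67%, 5.78% and 6.07% in place of 1.93%, 1.71%, 1.49% and 1.60%, and over rows at 1 FPKM or more growing control had 1.61%. Without the minimum of 5 FPKM the genes past a change of 1 numbered 276, 700.0, 1456 and 558 in place of 161, 411, 911 and 320. Of 44 list medians, the sign changed in 13 with the deposited pairing, in 8 with members at 5 FPKM or more and in 3 with median-ratio rescaling. The causes were not tested.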
